A study of Mus musculus with 29 samples.

Results

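The comparison described here is nerve injury against sham surgery in mouse digit tips 14 days after amputation, in 6 of the 29 libraries of the series. The libraries were chosen by surgery and day alone: 3 after spared nerve injury (SNI) and 3 after sham surgery, each from 1 animal and labelled a biological replicate. SNI cut the common peroneal and the tibial branch of the sciatic nerve, and sham animals had the same operation without the cut. In both groups the distal left hindlimb digit was amputated through the third phalanx 5 days after surgery. The tissue beyond the metacarpophalangeal joint was then taken with the nail removed. The strain, sex and age of the animals are not stated in the labels. The sural branch is spared in this model by its design, so the foot keeps part of its nerve supply. Below, the libraries are called SNI 1, SNI 2 and SNI 3 and sham 1, sham 2 and sham 3 by their labelled replicate numbers. Total counts ran from 38184080 to 56809440, and levels are given as CPM, counts scaled to the TMM-adjusted library size.

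The mouse digit tip regrows its bone, nail and skin when it is cut through the end of the third phalanx. Macrophages and osteoclasts, the multinucleated cells that dissolve bone, first clear the wound and shorten the stump. A blastema of proliferating mesenchymal cells then forms and rebuilds bone directly, under a nail organ that supplies signals for growth. Schwann cells of the digit's nerves secrete factors that act on the blastema, and nerve injury is known to impair regrowth. In bulk tissue, fewer cells of a type and less RNA per cell cannot be told apart.

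The libraries held the labelled tissue. The basal epidermal keratins Krt5 and Krt14 stood between 4094 and 5471 CPM in all 6 libraries. Other basal keratinocyte genes were less even. Of 10 in a list with these, 4, 7 and 8 lay below the lowest sham library in SNI 1, 2 and 3. Of all genes, 29.3%, 40.1% and 42.4% did. The bone collagen gene Col1a1 had 7461, 4526 and 5852 CPM in sham 1 to 3, and 12379, 1294 and 844 CPM in SNI 1 to 3. The myelin gene Mbp was present in every library, between 51.4 and 94.2 CPM.

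The 3 SNI libraries differed from each other more than the sham libraries did. The first principal component of log2 CPM held 68.7% of the variance and placed sham 1 to 3 at -49.9, -34.7 and -37.9. SNI 1 lay beside them at -29.5, whereas SNI 2 and SNI 3 lay at 55.3 and 96.7. The second component (14.5%) placed SNI 1, 2 and 3 at -42.2, 36.5 and -22.2, all apart from sham at 5.96 to 13.2. Gene loadings on the first component ran with transcript length (Spearman's rho -0.592 across genes, which are not independent replicates). In the decile of genes with the shortest transcripts (median 880 nt), the median deviation from the sham mean was -0.04, 0.67 and 0.83 log2 units in SNI 1, 2 and 3. In the decile with the longest (median 8024 nt) it was 0.00, -1.06 and -1.31. Sham libraries stayed between -0.10 and 0.08 in both deciles. Long transcripts were therefore counted low and short ones high in SNI 2 and SNI 3, but not in SNI 1, and the part of this pattern in any single gene's difference was not tested. Values from a fit with a length offset per library are given beside those of many lists and of some genes with long or short transcripts. Where none is printed, the value may also have changed with the offset. In the other days compared below, sham replicate 1 of day 21 and SNI replicate 2 of day 7 were also low in long transcripts. As deviations from the mean of 17 libraries, the median of their longest decile of transcripts minus that of their shortest was -2.59 and -2.15 log2 units, against 0.83 in the other sham library of day 21.

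**Figure D1:**
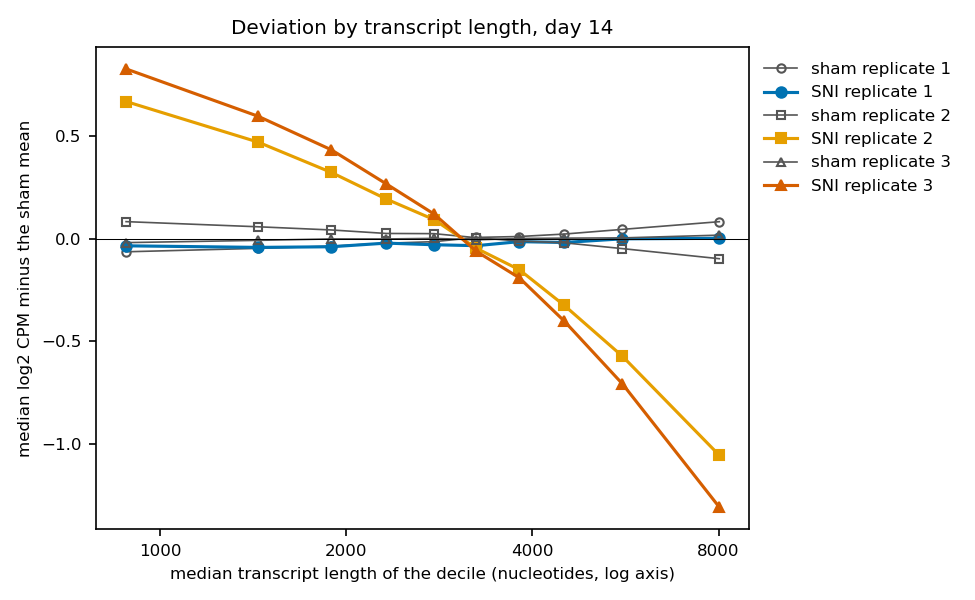
Median deviation of log2 CPM from the sham mean (y axis, log2 units) in 10 groups of genes ordered by transcript length (x axis, median length in nt, log scale), with 1 line for each of the 6 libraries of day 14. SNI 2 and SNI 3 run from 0.67 and 0.83 in the shortest decile to -1.06 and -1.31 in the longest, while SNI 1 and the sham libraries stay near 0.

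Across all genes, no gene was called by edgeR's quasi-likelihood test at an adjusted p under 0.05 (0 of 16084 tested, 0%), and the smallest adjusted p was 0.555. At an unadjusted p under 0.05, 722 genes were higher (4.49%) and 232 lower (1.44%) in SNI. With the replicate number as a block, 592 were higher and 614 lower. Without SNI 1, 1825 were lower, and without SNI 3, 275 were higher and 45 lower. DESeq2 called 64 genes higher (0.400%) and 3 lower (0.0188%) of 15990 that it tested, while limma voom called 8737 with sample weights of 0.227, 2.79 and 0.764 for SNI 1, 2 and 3. The 3 lower genes of DESeq2, Ccl21c, Duxbl3 and Hist2h2aa1, were at 0 counts in all SNI libraries and in at least 1 sham library each, and as members of families of near-identical copies they are uncertain. All 3 SNI libraries lay above all 3 sham libraries for 1773 genes (11.0%) and below them for 1970 (12.2%). A log2 fold change above 0 was found in 52.0% of genes, and the median over all genes was 0.03. In the gene accounts below, fold changes are from edgeR on a log2 scale with their standard error (SE), and none passed its test. Counts of lists are read against these shares.

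Few genes lay more than 2-fold beyond the sham range in all 3 SNI libraries at once. Of 13712 genes with a mean of at least 1 CPM, 15 did so upward (0.109%) and 4 downward (0.0292%). SNI 1 and SNI 3, without SNI 2, shared 66 such genes upward (0.481%), 8 of them from an 18-gene osteoclast list. SNI 2 and SNI 3, without SNI 1, shared 110 upward (0.802%), of which 7 were from a 20-gene macrophage list and none from the osteoclast list. The same pair shared 1406 genes downward (10.3%), with a median transcript length of 6387.5 nt. SNI 1 and SNI 2, without SNI 3, shared 1 upward and 2 downward. The 15 genes upward in all 3, of which 1 was in the macrophage list and 0 in the osteoclast list, were the chemokine genes Ccl2, Ccl7, Ccl8 and Ccl9, the calprotectin subunits S100a8 and S100a9, the acute phase gene Saa3, the receptors Cd209f, Clec4a2, Pira2 and Ms4a7, and Mcoln2, Bcl2a1b, Slc13a3 and Tfec. The 4 genes downward in all 3 were Col28a1, Miat, Zic2 and Cdh6.

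Osteoclast genes showed the widest differences among the SNI libraries. Of the 18 genes in the list, 16 had a log2 fold change above 0 and 12 an unadjusted p under 0.05, all higher, with a median log2 fold change of 1.64 (1.75 with the length offset, 0.84 without SNI 3, and 0.20 by voom, which gave SNI 2 the highest weight of the SNI libraries). By library the median deviation from the sham mean was 1.55 in SNI 1, -0.58 in SNI 2 and 2.56 in SNI 3. All 18 genes were above the highest sham library in SNI 1, where 25.5% of all genes were. In SNI 3, 16 of 18 were (44.9% of all genes), and in SNI 2 only 2 were (42.6% of all genes), with 11 of 18 below the lowest sham library. Summed over the list, sham libraries held 454 to 592 CPM and SNI 1, 2 and 3 held 1899, 449 and 3508 CPM. SNI 1 and SNI 3 thus held more osteoclast transcripts than any sham library, and SNI 2 did not.

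The 2 enzymes that define the resorbing osteoclast followed this order. Acp5, the tartrate-resistant acid phosphatase, had 87.7, 73.6 and 70.0 CPM in sham and 298, 97.3 and 779.6 CPM in SNI (log2 fold change 2.34, SE 0.57). All SNI libraries were above all sham ones, but SNI 2 only narrowly. Ctsk, the cathepsin that digests bone collagen, had 140.1, 91.0 and 114 CPM in sham and 567, 129.7 and 1613 CPM in SNI (2.74, SE 0.69). Here SNI 2 lay inside the sham range. DESeq2 called both genes, with adjusted p of 0.0155 and 0.0116.

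The promoters of these 2 genes are shown because a factor of the osteoclast program, NFATc1, is known to act on both. They are RefSeq reference sequence of GRCm38.p6, from 250 bases before to 50 after an annotated start, written 5′ to 3′ on the gene's strand. Capitals mark TTTCCA, the reverse complement of the NFAT core TGGAAA. The first spans chr3:95498960-95499259 on the plus strand. The second spans chr9:22130549-22130848 on the minus strand and belongs to the third of 3 annotated Acp5 starts. It is shown because it holds the motif, which the promoters of the other 2 Acp5 starts lack.
Ctsk: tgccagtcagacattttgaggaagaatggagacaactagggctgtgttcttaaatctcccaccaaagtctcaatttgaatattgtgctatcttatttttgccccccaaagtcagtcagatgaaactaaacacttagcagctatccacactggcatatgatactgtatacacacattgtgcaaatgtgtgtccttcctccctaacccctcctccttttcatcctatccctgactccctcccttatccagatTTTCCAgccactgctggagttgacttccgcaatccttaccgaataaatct
Acp5: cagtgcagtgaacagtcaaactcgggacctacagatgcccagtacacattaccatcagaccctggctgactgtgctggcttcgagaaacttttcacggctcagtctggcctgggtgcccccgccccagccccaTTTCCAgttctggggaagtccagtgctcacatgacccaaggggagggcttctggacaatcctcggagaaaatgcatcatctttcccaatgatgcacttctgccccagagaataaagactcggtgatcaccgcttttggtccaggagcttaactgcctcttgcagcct
Promoters were found for 10 of the 18 osteoclast genes, 18 promoters in all. TGGAAA was present on either strand in 4 of them (22.2%), against 17.4% of 15273 promoters of tested genes. The PU.1 motif GAGGAAGT was in 0 of the 18 (3.08% of tested genes' promoters) and the AP-1 motif TGANTCA in 0 (5.98%). Of 15 promoters of macrophage list genes, 5 held TGGAAA (33.3%), 1 GAGGAAGT (6.67%) and 4 TGANTCA (26.7%). The NFAT core was thus not particular to the osteoclast list. None of the 3 motifs contains another, and a match describes these windows and is not a binding site.

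Genes for the fusion and attachment of osteoclasts had the same library order. Dcstamp, a membrane protein needed for osteoclast precursors to fuse, had 0.769, 0.515 and 1.01 CPM in sham and 7.92, 0.669 and 22.1 CPM in SNI (3.74, SE 0.91, adjusted p 0.00434 by DESeq2). Ocstamp, its partner in fusion, had 1.28, 0.458 and 1.11 CPM in sham and 8.35, 0.309 and 14.6 CPM in SNI (3.04, SE 0.93). In both genes SNI 1 and SNI 3 lay far above sham and SNI 2 did not. Atp6v0d2, the osteoclast form of a proton pump subunit, had 4.82, 1.77 and 2.57 CPM in sham and 20.7, 1.70 and 45.0 CPM in SNI (2.88, SE 0.91). Oscar, an activating receptor that binds collagen, had 0.652, 0.229 and 0.313 CPM in sham and 3.41, 0.0515 and 3.93 CPM in SNI (2.63, SE 1.05). Itgb3, the beta chain of the integrin by which osteoclasts grip bone, had 16.3, 13.5 and 12.5 CPM in sham and 28.2, 15.4 and 68.4 CPM in SNI (1.41, SE 0.53, and 2.08, SE 0.56 with the length offset). SNI 2 lay below every sham library in Atp6v0d2 and Oscar and within their range in Itgb3.

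Other members of the list differed less. Ostm1, which partners the chloride transporter of the resorbing membrane, had 34.5, 33.2 and 32.5 CPM in sham and 38.4, 41.8 and 51.0 CPM in SNI (0.39, SE 0.17). It was, with Acp5, 1 of the 2 list members of 18 without overlap between the groups. Of all genes, 11.0% had every SNI library above every sham library, so this count was near that share. Nfatc1, the transcription factor of the osteoclast program, had 61.3, 54.5 and 47.5 CPM in sham and 71.3, 23.5 and 26.9 CPM in SNI (-0.42, SE 0.55, and -0.18, SE 0.34 with the length offset). Tnfrsf11a, the receptor RANK, had 7.62, 7.59 and 9.93 CPM in sham and 12.0, 5.58 and 10.00 CPM in SNI (0.14, SE 0.39). Neither gene separated the groups, and Nfatc1 was above sham only in SNI 1. The 15 subunits of the vacuolar proton pump had a median log2 fold change of 0.49 (0.32 with the length offset, 0.29 without SNI 3), with 14 above 0 and 1 at an unadjusted p under 0.05.

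**Figure D2:**
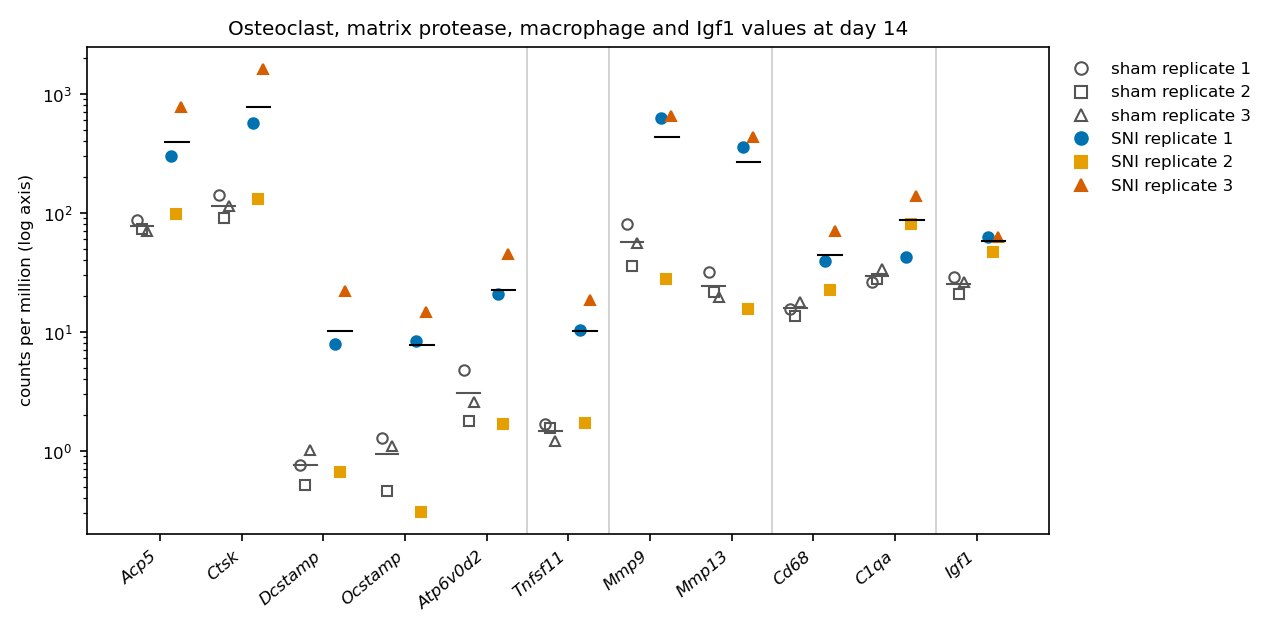
CPM (y axis, log scale) of osteoclast genes, Tnfsf11, proteases, macrophage genes and Igf1 in the 6 libraries of day 14, with 1 point for each library (grey for sham, colour for SNI) and a line at each group's mean. Acp5, Ctsk, Dcstamp, Mmp9 and Mmp13 are high in SNI 1 and SNI 3. In SNI 2 the first 3 are near sham and Mmp9 and Mmp13 below it, whereas C1qa and Igf1 are above sham in all 3.

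Among 8 regulators of osteoclast formation, 2 stood apart and 6 did not. Tnfsf11, which encodes RANKL, the ligand that drives osteoclast formation, had 1.68, 1.54 and 1.20 CPM in sham and 10.4, 1.72 and 18.6 CPM in SNI (2.79, SE 0.63, adjusted p 0.00533 by DESeq2). It was high in the same 2 libraries as the osteoclast genes, and SNI 2 lay just above the highest sham library. Ccl9, a chemokine that attracts osteoclast precursors, had 7.85, 7.55 and 8.32 CPM in sham and 29.1, 23.5 and 113 CPM in SNI (2.80, SE 0.73), with all 3 SNI libraries well above sham. Tnfrsf11b, the decoy receptor osteoprotegerin that blocks RANKL, had 8.57, 8.87 and 7.00 CPM in sham and 6.87, 10.2 and 8.86 CPM in SNI (0.09, SE 0.25). Il34, another ligand of the receptor of CSF1, had 26.9, 37.6 and 38.7 CPM in sham and 33.9, 46.9 and 51.4 CPM in SNI (0.36, SE 0.29). None of the other 4 had an unadjusted p under 0.05. The list's median was 0.04 (0.33 with the length offset).

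Some matrix metalloproteases, enzymes that cut collagen and other matrix, repeated the split. Of 16 proteases and inhibitors, 13 had a log2 fold change above 0 and 6 an unadjusted p under 0.05, all higher, with a median of 0.38 (0.84 with the length offset, 0.20 without SNI 1, 0.62 without SNI 2 and 0.00328 by voom). Median deviations were 0.97, -0.26 and 0.52 in SNI 1, 2 and 3. Above the highest sham library were 14 of 16 in SNI 1 (25.5% of all genes) but only 8 in SNI 3 (44.9%). In SNI 2, 9 of 16 were below the lowest sham library (40.1% of all genes). Mmp3, a protease of stromal cells, had 5.45, 3.78 and 3.54 CPM in sham and 49.4, 5.48 and 229 CPM in SNI (4.47, SE 1.07, adjusted p 0.00126 by DESeq2). Mmp13, a collagenase of bone and wound tissue, had 31.8, 21.5 and 19.5 CPM in sham and 361, 15.6 and 431 CPM in SNI (3.47, SE 1.01). Mmp9, a gelatinase made by osteoclasts among others, had 81.1, 35.5 and 55.8 CPM in sham and 623, 28.0 and 656 CPM in SNI (2.92, SE 0.99). These 3 genes were among the 10 with the widest spread over the SNI libraries. Timp1, an inhibitor of these proteases, had 17.5, 14.6 and 17.2 CPM in sham and 51.2, 17.2 and 202 CPM in SNI (2.46, SE 0.69). Mmp3, Mmp13, Mmp9 and Timp1 were thus all high in SNI 1 and SNI 3. In SNI 2, Mmp13 and Mmp9 lay below every sham library, Mmp3 just above them and Timp1 within their range.

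Macrophage genes were higher in all 3 SNI libraries. Of 20 list members, 19 had a log2 fold change above 0, 14 an unadjusted p under 0.05 (all higher), and 17 showed no overlap between the groups. The median log2 fold change was 1.36 (0.89 without SNI 3), or 1.03 with the length offset, under which 17 had an unadjusted p under 0.05. Median deviations from the sham mean were 0.55, 1.03 and 1.97 in SNI 1, 2 and 3, and 19, 17 and 19 members lay above the highest sham library. Summed CPM was 640 to 654 in sham and 898, 850 and 1445 in SNI. SNI 1 and SNI 2 had similar sums for these genes, which they did not for osteoclast genes. These values by library carry no length offset. The list's median transcript was 1608.5 nt, and all genes of 1192 to 1668 nt had median deviations of -0.04, 0.47 and 0.60 in SNI 1, 2 and 3. The part of length in the order of the SNI libraries was not tested.

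The complement subunit C1qa, made by tissue macrophages, had 26.5, 27.7 and 34.0 CPM in sham and 42.6, 80.0 and 138 CPM in SNI (1.56, SE 0.51, and 1.06, SE 0.24 with the length offset). Its partners C1qb and C1qc differed by 1.41 (SE 0.44) and 1.47 (SE 0.42), and all 3 subunits had SNI 1 lowest and SNI 3 highest among the SNI libraries. Cd68, a lysosomal glycoprotein of phagocytes and osteoclasts, had 15.7, 13.6 and 18.0 CPM in sham and 39.1, 22.5 and 70.5 CPM in SNI (1.48, SE 0.35). DESeq2 called Cd68, at an adjusted p of 0.0163, and no other member of the list. Adgre1, which encodes F4/80, had 9.08, 7.72 and 10.7 CPM in sham and 13.0, 20.8 and 33.9 CPM in SNI (1.30, SE 0.46). Csf1r, the receptor for CSF1 on macrophages and osteoclast precursors, had 63.1, 57.5 and 62.7 CPM in sham and 110.0, 67.3 and 119.5 CPM in SNI (0.70, SE 0.31). Each of these genes had all SNI libraries above all sham libraries. Mrc1, a mannose receptor of resident macrophages, had 22.8, 23.3 and 25.5 CPM in sham and 33.7, 38.0 and 56.9 CPM in SNI (0.84, SE 0.27, and 1.39, SE 0.40 with the length offset).

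Genes of the lysosome and of myeloid receptors went the same way. All 16 lysosomal genes had a log2 fold change above 0, with 9 at an unadjusted p under 0.05 and 14 without overlap, and the median was 0.77 (0.63 with the length offset, 0.46 without SNI 3). Hexa, a subunit of the lysosomal hexosaminidase, had 38.3, 37.4 and 42.0 CPM in sham and 73.6, 62.1 and 133 CPM in SNI (1.19, SE 0.31). Lgmn, a lysosomal protease, had 61.8, 60.3 and 59.1 CPM in sham and 95.0, 88.8 and 194 CPM in SNI (1.06, SE 0.28). In both genes SNI 1 and SNI 2 were alike and SNI 3 was highest. All 16 of the 18 myeloid lectin and immunoglobulin-like receptors that were tested had values above 0, with a median of 1.69 (1.54 with the length offset, 0.95 without SNI 3), 8 at an unadjusted p under 0.05 and 12 without overlap. Clec4n, a receptor for fungal glycans, had 1.77, 1.60 and 1.68 CPM in sham and 5.98, 2.42 and 17.0 CPM in SNI (2.33, SE 0.61). Fcgr2b, the inhibitory receptor for immunoglobulin G, had 7.83, 8.58 and 8.78 CPM in sham and 15.1, 13.4 and 41.6 CPM in SNI (1.48, SE 0.44).

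**Figure D3:**
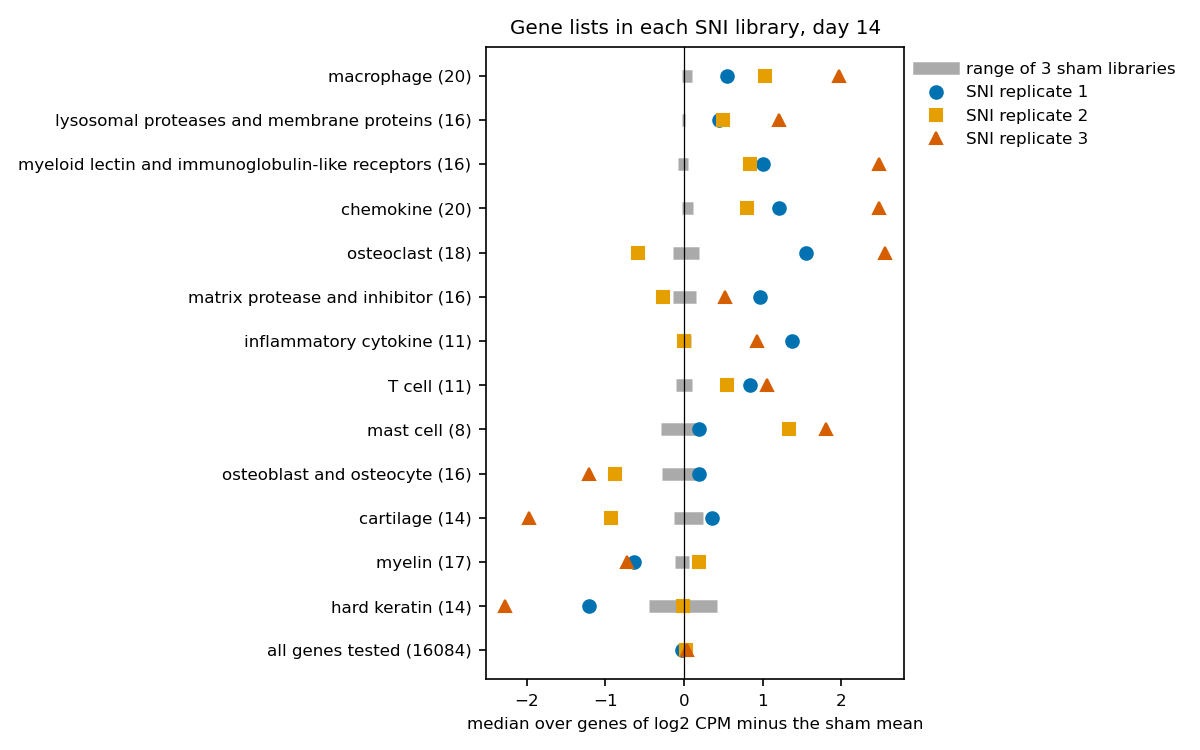
Median deviation of log2 CPM from the sham mean (x axis, log2 units) over the tested genes of each list (y axis, number of genes in brackets), with 1 point for each SNI library of day 14 and a grey bar for the range of the 3 sham libraries. Osteoclast genes lie at 1.55 and 2.56 in SNI 1 and SNI 3 and at -0.58 in SNI 2, while macrophage genes lie at 0.55, 1.03 and 1.97.

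Chemokines, the secreted proteins that guide leukocytes, had the highest median log2 fold change of the 40 lists in the main fit. Of 20 genes, 19 had a log2 fold change above 0, 13 an unadjusted p under 0.05 (all higher), and 12 no overlap, with a median of 2.10 (1.96 with the length offset, 1.44 without SNI 3). This rank depended on the fit. With the compared groups alone the median was 1.34, below neutrophil genes at 1.95, and by voom 1.39, below B cell genes at 1.96. DESeq2 called 8 of the 20. Ccl8, a ligand for monocytes and eosinophils, had 2.31, 2.52 and 2.28 CPM in sham and 8.99, 9.98 and 43.5 CPM in SNI (3.13, SE 0.79). Cxcl12, made by stromal cells and a signal for progenitor cells, had 182, 183 and 165 CPM in sham and 350.1, 310.0 and 688 CPM in SNI (1.35, SE 0.33, and 1.96, SE 0.57 with the length offset). Ccl19, a ligand for dendritic cells and T cells, had 1.49, 1.35 and 1.13 CPM in sham and 3.36, 2.55 and 6.46 CPM in SNI (1.64, SE 0.39). In these genes all 3 SNI libraries were above sham, with SNI 3 the highest. Ccl2, the main chemokine for monocytes, had 1.05, 1.03 and 1.11 CPM in sham and 2.72, 3.16 and 12.4 CPM in SNI (2.52, SE 0.77).

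Inflammatory cytokines were less uniform. Of 11 tested genes, 10 had a log2 fold change above 0, 3 an unadjusted p under 0.05 and 1 no overlap, with a median of 0.69 (0.89 with the length offset, 0.42 without SNI 1, 1.05 without SNI 2 and 0.14 by voom). Il1b, a fever cytokine of myeloid cells that also promotes resorption, had 0.210, 0.305 and 0.0481 CPM in sham and 2.45, 0.206 and 8.99 CPM in SNI (4.33, SE 1.34). It was high in SNI 1 and SNI 3 and within the sham range in SNI 2. Il11, a cytokine that acts on stromal cells, had 0.885, 0.744 and 0.505 CPM in sham and 2.70, 0.463 and 2.77 CPM in SNI (1.48, SE 0.61). Tnf had 0.722, 0.515 and 0.649 CPM in sham and 1.28, 0.257 and 1.11 CPM in SNI (0.50, SE 0.52), so the groups overlapped. Il1a, the epidermal form of interleukin 1, differed by -0.12 (SE 0.25), and Il1rn, the natural blocker of its receptor, by 0.17 (SE 0.27).

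Other blood and immune cell markers differed by library in other ways. S100a8, abundant in neutrophils and in wounded epidermis, had 2.12, 2.29 and 2.26 CPM in sham and 82.2, 8.26 and 103 CPM in SNI (4.86, SE 1.68). The granule gene Mpo, made by neutrophil precursors, had 0.792, 1.35 and 1.25 CPM in sham and 0.510, 13.7 and 13.2 CPM in SNI (3.01, SE 1.97). The first was above sham in all 3 SNI libraries, and the second only in SNI 2 and SNI 3. Of 13 neutrophil genes, 11 had values above 0 and 2 an unadjusted p under 0.05, with median deviations of -0.01, 1.87 and 1.92 in SNI 1, 2 and 3. B cell genes (6 tested, all above 0, 1 at an unadjusted p under 0.05) had medians of -0.38, 2.27 and 1.15 by library, and erythroid genes (9 tested, 7 above 0, none at that p) of 0.21, 1.18 and 0.75. These 3 medians were higher in SNI 2 and SNI 3 than in SNI 1, the order of short transcripts in general. The median transcript lengths of the neutrophil, B cell and erythroid lists were 1170, 1954.5 and 1530 nt. Their median log2 fold changes of 1.68, 1.51 and 0.82 were 1.41, 1.15 and 0.55 with the length offset. The summed CPM of neutrophil genes was 170.5 in SNI 1, 60.4 in SNI 2 and 234 in SNI 3, against 16.7 to 22.0 in sham. The sum of SNI 1 was raised by few genes. Only 3 of the 13 lay above the highest sham library there (25.5% of all genes) and 5 below the lowest (29.3%). In SNI 2 and in SNI 3, 10 of 13 lay above it (42.6% and 44.9% of all genes). T cell genes were nearly even, with 10 of 11 above 0, 5 at an unadjusted p under 0.05 and medians of 0.84, 0.55 and 1.06. Mast cell genes (8 tested, 6 above 0, 5 at an unadjusted p under 0.05) had medians of 0.19, 1.34 and 1.80, and the list's median of 1.26 was 0.79 with the length offset. Adipocyte genes, 7 of 10 above 0 and none at that p, had -0.21, 1.06 and 0.82, and the list's median of 0.67 was 0.36 with the length offset. The part of these cell types in the differences above was not tested.

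Igf1 encodes insulin-like growth factor 1, which promotes growth of bone and soft tissue and is made by macrophages and fibroblasts among others. It had 28.7, 20.7 and 26.3 CPM in sham and 63.0, 46.9 and 63.1 CPM in SNI (1.19, SE 0.24, and 1.94, SE 0.51 with the length offset). The 3 SNI libraries were close to each other and all above sham, and DESeq2 gave an adjusted p of 0.00578. Igfbp4, a binding protein that restrains IGF1, had 338, 314 and 329 CPM in sham and 635, 455 and 847 CPM in SNI (0.98, SE 0.23). The receptor gene Igf1r, a long transcript, had 55.3, 48.3 and 51.2 CPM in sham and 48.8, 16.8 and 11.4 CPM in SNI (2.01-fold lower, SE 0.52 on the log2 scale, and a log2 fold change of -0.31, SE 0.17 with the length offset). Igf2 had 30.3, 32.5 and 32.1 CPM in sham and 22.2, 29.2 and 20.0 CPM in SNI (-0.41, SE 0.24, and -0.06, SE 0.34 with the length offset). Of the 11 genes of the family, 6 had values above 0, and the median of 0.13 turned to -0.08 with the length offset and to -0.07 without SNI 2.

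Several genes of connective tissue were also among the 15 higher genes of smallest p. Epyc, a small proteoglycan of growth cartilage, had 2.89, 2.99 and 3.61 CPM in sham and 11.7, 5.30 and 13.5 CPM in SNI (1.68, SE 0.34, the smallest p of the 15). Mgp, an inhibitor of calcification, had 54.4, 51.1 and 49.3 CPM in sham and 110.5, 79.1 and 123 CPM in SNI (1.01, SE 0.22, and 0.63, SE 0.36 with the length offset). Dpt, a matrix protein of dermal fibroblasts, had 95.8, 101 and 88.2 CPM in sham and 156, 198 and 297 CPM in SNI (1.19, SE 0.28). These 3 genes did not overlap between the groups, and SNI 3 was highest in each. Pdpn, a membrane glycoprotein of fibroblasts and lymphatic vessels, had 11.3, 10.6 and 10.7 CPM in sham and 23.4, 16.1 and 37.4 CPM in SNI (1.24, SE 0.27). Tnfrsf9, a costimulatory receptor of activated lymphocytes, had 0.629, 0.400 and 0.361 CPM in sham and 2.47, 0.926 and 6.20 CPM in SNI (2.78, SE 0.57). Steap3, a reductase for iron, had 30.1, 24.8 and 37.3 CPM in sham and 59.8, 45.8 and 75.0 CPM in SNI (0.97, SE 0.23). The 15 also held Igf1, Igfbp4, Tnfsf11, Cd68, Ccl19 and Mmp3, given above. The sugar transferase genes B3galnt1 and B4galt2, of the same 15, differed by 1.09 (SE 0.25) and 0.88 (SE 0.21). Decorin (Dcn), a proteoglycan of collagen fibrils, had 835, 895 and 906 CPM in sham and 1172, 1551 and 1848 CPM in SNI (0.79, SE 0.27), but the 13 small proteoglycans together had a median of -0.00, with 6 above 0.

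Nail and hair keratins were the only list here with no member above 0. All 14 genes of this list had log2 fold changes below 0, against 48.0% of all genes, and none had an unadjusted p under 0.05. The median was -0.98 (-1.21 with the length offset, -0.56 without SNI 3, -1.65 without SNI 2), and by library it was -1.21, -0.02 and -2.28, so SNI 2 resembled sham. Sham libraries themselves ranged from -0.45 to 0.43. Krt86, a keratin of the nail and hair shaft, had 634, 317 and 191 CPM in sham and 143, 187 and 40.2 CPM in SNI (-1.62, SE 0.94). Hoxc13, the transcription factor that switches on these keratins, had 90.2, 78.8 and 63.0 CPM in sham and 43.6, 49.3 and 15.0 CPM in SNI (-1.10, SE 0.64). Both were lower in all 3 SNI libraries, Krt86 only just so in SNI 2. As the nail was removed before RNA was taken, how much nail matrix stayed in each sample is not known and was not tested.

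Wound keratins went the other way in 1 library. Krt6b, a keratin switched on in injured epidermis, had 143, 242 and 77.9 CPM in sham and 2762, 91.9 and 407 CPM in SNI (2.82, SE 1.28). Krt16, of the same program, had 321, 353 and 147 CPM in sham and 2216, 200.4 and 447 CPM in SNI (1.80, SE 1.02). SNI 1 stood far above every other library in both genes, SNI 3 moderately, and SNI 2 lay among the sham libraries. Over 8 wound genes, 5 were above 0 and 1 had an unadjusted p under 0.05, with medians of 1.15, -0.37 and 0.07 by library. Of 10 basal keratinocyte genes, 8 were below 0 and 1 of them had an unadjusted p under 0.05. Their median was -0.35 (-0.18 with the length offset), and by library it was -0.02, -0.84 and -0.83. Of 13 genes of differentiated epidermis, 12 were below 0, 7 of them without overlap, with a median of -0.41 (-0.21 with the length offset) and none at an unadjusted p under 0.05. Krt1, of the spinous layer, had 14995, 16831 and 15993 CPM in sham and 11114, 13844 and 7244 CPM in SNI (-0.57, SE 0.31). Hrnr, a long transcript of the cornified layer, had 8061, 7854 and 8809 CPM in sham and 6319.6, 3975 and 2479.7 CPM in SNI (-0.95, SE 0.47), but its difference was -0.07 (SE 0.19) with the length offset.

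**Figure D4:**
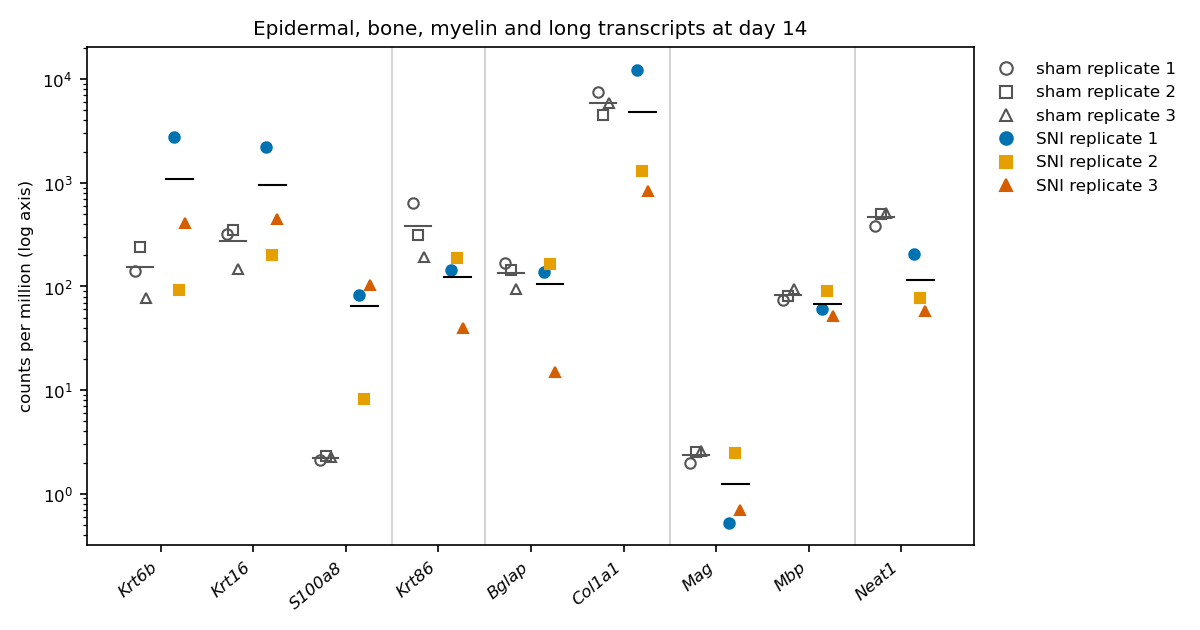
CPM (y axis, log scale) of epidermal, bone and myelin genes and of Neat1 in the 6 libraries of day 14, with 1 point for each library (grey for sham, colour for SNI) and a line at each group's mean. Krt6b peaks at 2762 CPM in SNI 1, and Col1a1 is highest in SNI 1 (12379 CPM) and lowest in SNI 3 (844 CPM).

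Bone-forming genes did not differ from sham beyond the spread of the SNI libraries. Of 16 osteoblast and osteocyte genes, 14 were below 0 and none had an unadjusted p under 0.05. In 2 of them every SNI library lay below every sham library, near the share of all genes (12.2%). The list's median was -0.38 both without and with the length offset. It was -0.99 without SNI 1 and -0.09 without SNI 3. The medians were 0.20, -0.88 and -1.20 in SNI 1, 2 and 3. Smpd3, a lipid enzyme needed for bone mineral, had 193, 173 and 179 CPM in sham and 160.5, 95.6 and 47.2 CPM in SNI (-0.85, SE 0.55). Dlx5, a transcription factor of osteoblasts, had 24.1, 24.1 and 22.8 CPM in sham and 21.8, 15.1 and 9.34 CPM in SNI (-0.62, SE 0.46). These 2 genes were below sham in all 3 SNI libraries, with SNI 1 nearest to sham. Col1a1 (above) had a log2 fold change of -0.30 with an SE of 1.42, with SNI 1 above and SNI 2 and SNI 3 below sham. Bglap, the osteocalcin gene, had 169, 145 and 94.1 CPM in sham and 137, 166 and 14.8 CPM in SNI (-0.36, SE 1.09).

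Cartilage genes were split in the same way by library, with medians of 0.35, -0.93 and -1.97. Of 14 tested genes, 11 were below 0, the median was -0.55 (-0.49 with the length offset, -1.41 without SNI 1, -0.13 without SNI 3), and 2 had an unadjusted p under 0.05 in each direction. Col9a2, a chain of the collagen on cartilage fibrils, had 2.96, 4.27 and 6.59 CPM in sham and 2.04, 1.42 and 0.742 CPM in SNI (-1.71, SE 0.58). Sox9, the transcription factor that specifies cartilage and is also used in hair and nail, had 75.1, 70.7 and 60.9 CPM in sham and 59.7, 22.8 and 17.5 CPM in SNI (-1.05, SE 0.44). Both were lower in all 3 SNI libraries, Sox9 by little in SNI 1. The 2 higher ones were Epyc and Mgp. Col11a2, a minor fibril collagen, had the widest spread over the SNI libraries among the tested genes ranked. Those were genes with a mean of at least 10 CPM over the 6 libraries of day 14, without predicted models. Col11a2 had 76.4, 47.7 and 52.8 CPM in sham and 95.6, 7.49 and 1.48 CPM in SNI (-0.76, SE 1.44). Col11a1 and the collagen receptor gene Itga11 had the same order of SNI libraries, with 215, 21.9 and 9.17 CPM and with 39.5, 3.63 and 2.05 CPM. A further pair of genes of wide spread, the long transcripts Spen and Hivep1, had 48.8, 4.27 and 3.38 CPM and 72.2, 7.72 and 4.58 CPM there. In these 5 genes SNI 2 and SNI 3 were far below every sham library and SNI 1 was not.

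Myelin genes, which Schwann cells need to wrap axons, were not called at day 14. Of 17 genes, 14 were below 0, none had an unadjusted p under 0.05 and 3 did not overlap, with a median of -0.38 (-0.35 with the length offset, -0.75 without SNI 2, -0.23 without SNI 1, -0.07 by voom). The medians were -0.64 in SNI 1, 0.19 in SNI 2 and -0.72 in SNI 3, and 13, 5 and 15 of the 17 lay below the lowest sham library, where 29.3%, 40.1% and 42.4% of all genes did. Mbp, a main myelin protein, had 73.6, 81.1 and 94.2 CPM in sham and 60.3, 89.9 and 51.4 CPM in SNI (-0.30, SE 0.35). SNI 1 and SNI 3 were below every sham library and SNI 2 was not. Mag, an adhesion protein at the axon, had 1.98, 2.52 and 2.60 CPM in sham and 0.527, 2.47 and 0.698 CPM in SNI (-0.95, SE 0.68). Prx, which stabilises the myelin sheath, had 21.0, 20.2 and 24.8 CPM in sham and 14.0, 12.6 and 5.81 CPM in SNI (-1.03, SE 0.72, and -0.61, SE 0.52 with the length offset). Sox10, the factor that keeps Schwann cell identity and is also expressed in sweat glands and melanocytes, had 9.57, 11.1 and 8.22 CPM in sham and 7.44, 2.57 and 1.59 CPM in SNI (-1.31, SE 0.89). Of 10 identity genes, 8 were below 0 and 1 was at an unadjusted p under 0.05. That gene was Sorcs1, with 1.40, 1.51 and 1.56 CPM in sham and 0.675, 0.540 and 0.218 CPM in SNI (-1.63, SE 0.55, and -1.04, SE 0.30 with the length offset). Of 14 genes of the Schwann cell response to injury, 5 were above 0 and none had that p, with a median of -0.21 (-0.05 with the length offset, -0.47 without SNI 1, 0.03 without SNI 2 and 0.06 without SNI 3).

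Several of the 10 lower genes of smallest p have long transcripts and moved with the length offset. Neat1, a long nuclear RNA that builds paraspeckles, had 384, 501 and 516 CPM in sham and 207, 77.5 and 57.9 CPM in SNI (-2.03, SE 0.67). With the length offset it was -1.07 (SE 0.25). Ntrk3, the receptor for neurotrophin 3, had 2.54, 1.89 and 2.04 CPM in sham and 1.27, 1.18 and 0.851 CPM in SNI (-0.97, SE 0.30), but 0.31 (SE 0.41) with the offset, so its direction depended on that step. Plin4, a protein of lipid droplets, had 14.5, 19.6 and 15.1 CPM in sham and 9.17, 5.53 and 5.96 CPM in SNI (-1.25, SE 0.41, and -0.78, SE 0.35 with the offset). Plekhh1 differed by -1.25 (SE 0.41, and -0.76, SE 0.22 with the offset), and Ldb3, a protein of muscle Z discs, by -0.66 (SE 0.22, and -0.25, SE 0.21 with the offset). Kcnk5, a potassium channel with the smallest p of the 10, had 14.4, 14.1 and 15.7 CPM in sham and 9.65, 6.92 and 8.47 CPM in SNI (-0.82, SE 0.23, and -0.76, SE 0.20 with the offset). Hoxc8, a patterning gene, had 1.40, 1.72 and 2.02 CPM in sham and 1.15, 0.592 and 0.502 CPM in SNI (-1.18, SE 0.37). The other 3, Rpusd2, Rad52 and Clasrp, had log2 fold changes of -0.68, -0.67 and -0.69 (SE 0.22, 0.22 and 0.23), and -0.73, -0.87 and -0.82 with the offset. In all 10 the groups did not overlap.

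**Figure D5:**
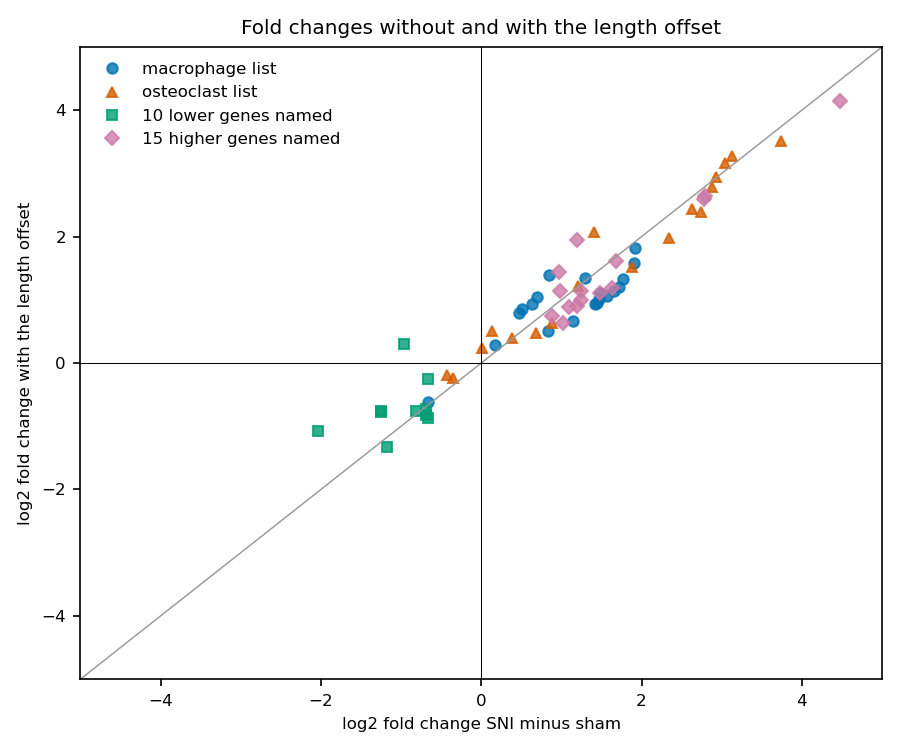
Log2 fold change of SNI against sham with the length offset (y axis) against that without it (x axis), with 1 point for each gene of the macrophage and osteoclast lists, the 15 higher and the 10 lower genes named, and a line where both are equal. Neat1 moves from -2.03 to -1.07 and Ntrk3 from -0.97 to 0.31, while Igf1 moves from 1.19 to 1.94.

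With the length offset, 1183 genes were higher (7.36%) and 435 lower (2.70%) at an unadjusted p under 0.05, and 0 of 16084 were called (0%). The median log2 fold change of the longest decile moved from -0.63 to 0.02 and that of the shortest from 0.55 to 0.09. Proliferation genes were mixed. Mki67, a long transcript that marks dividing cells, had 109.7, 64.5 and 94.3 CPM in sham and 71.0, 10.2 and 6.94 CPM in SNI (-1.60, SE 0.89, and -1.22, SE 0.49 with the offset). In all, 9 of 12 proliferation genes were above 0, with a median of 0.27 (0.20 with the offset) and none at an unadjusted p under 0.05 without it.

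The SNI effect at day 14 was also tested against that at day 7 (3 SNI and 3 sham libraries) and at day 21 (3 SNI and 2 sham) as an interaction. No gene was called by edgeR's interaction test against day 7 (0 of 16084, 0%; 221 at an unadjusted p under 0.05, 1.37%) or against day 21 (0 of 16084, 0%; 785 at an unadjusted p under 0.05, 4.88%). The second count depended on 1 sham library of day 21: without sham replicate 2 of that day, 4563 genes were called, on the assumption that the remaining one varies like the other groups. The remaining library, replicate 1, is the one described above as low in long transcripts (-2.59). With the length offset and all libraries, edgeR again called 0 genes for either day. Acp5 had log2 fold changes of 0.23 (SE 0.55) at day 7 and 0.16 (SE 0.61) at day 21 beside 2.34 at day 14, an interaction of 2.12 (SE 0.78) and of 2.18 (SE 0.82). Without SNI 3 these were 1.13 and 1.19. Tnfsf11 had 0.34 (SE 0.59) at day 7 and -0.19 (SE 0.67) at day 21, an interaction of 2.46 (SE 0.85) and of 2.98 (SE 0.90). Igf1 had 0.16 (SE 0.24) at day 7 and -0.20 (SE 0.27) at day 21, an interaction of 1.03 (SE 0.34) and of 1.39 (SE 0.36). In these 3 genes the values of day 14 were the highest of the 3 days, but no interaction passed the adjusted test. Epyc had the interaction of smallest p against day 21 among the named genes, 2.88 (SE 0.50), with -1.19 (SE 0.37) at day 21.

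Over lists, the osteoclast median was 0.05 at day 7 and 0.17 at day 21, beside 1.64 at day 14. The macrophage median was 0.74 at day 7 and -0.13 at day 21, beside 1.36. The myelin median was -1.29 at day 7 and -1.69 at day 21, beside -0.38. Mbp had -1.46 (SE 0.35) at day 7 and -1.69 (SE 0.38) at day 21, with interactions of 1.15 (SE 0.49) and 1.39 (SE 0.52) that were not called. The genes of smallest interaction p against day 7 were Pi16, Dusp1, Cyp26a1, Fos and Errfi1, with interactions of 1.78, 2.38, 2.18, 4.37 and 1.04, and Cgref1, Abhd1, Padi4, Itgal and Ngp, with -1.37, -0.97, -3.25, -1.81 and -6.78. Without SNI replicate 2 of day 7, Padi4 was at -1.03, Itgal at -0.86 and Ngp at -0.98. Dusp1 and Fos are immediate early genes, which respond quickly to many stimuli, and Fos had 20.1, 19.9 and 6.69 CPM in sham and 146, 35.5 and 18.3 CPM in SNI at day 14. Against day 21 the higher ones were, beside Epyc and Igf1, Slc35g2, Tmprss11b and Sprr2e (2.39, 6.84 and 5.26), and the lower ones Tspear, Pex6, Sox2, Pla2g4b and Ccdc138 (-1.96, -1.06, -2.07, -13.09 and -1.40). Without sham replicate 2 of day 21 Tmprss11b was at 2.86, Sox2 at -3.24 and Pex6 at -1.62. Without replicate 1 Sprr2e was at 2.85 and Pex6 at -0.66. Pla2g4b ran from -20.49 without SNI 3 of day 14 to -11.58 without sham 1 of day 14, so the size of its interaction is not well determined.

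A second set of the series holds 3 other amputated digits of day 14 after SNI, with no sham group, so its levels are set beside those above without a test. Acp5 had 99.4, 116 and 119 CPM there, Ctsk 148, 93.8 and 172 CPM and Dcstamp 1.26, 0.602 and 1.46 CPM. Mmp9 had 84.6, 53.4 and 114 CPM and Tnfsf11 1.96, 1.14 and 3.70 CPM. These values lie near SNI 2 and the sham libraries of the comparison and below SNI 1 and SNI 3, although the tables were normalized apart. C1qa had 33.1, 48.6 and 39.6 CPM and Igf1 29.9, 32.9 and 36.4 CPM in the second set. All these Igf1 values lie above the highest sham library of the comparison and below its lowest SNI library. For C1qa, 33.1 CPM lies within the sham range, 39.6 CPM between sham and SNI 1, and 48.6 CPM between SNI 1 and SNI 2. Deviations of osteoclast genes from their own group's mean had medians of 0.125, -0.326 and 0.155 in these 3 libraries and 0.449, -1.57 and 1.31 in SNI 1, 2 and 3.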

How the data were processed

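The authors deposited raw read counts per gene symbol and library, made from poly(A), strand-specific libraries of 500 ng RNA with 9 PCR cycles, per the labels' protocols. Per the submitters' processing notes the build is GRCm39, and the aligner and the counter are unknown: not given in the sources used here. From these counts, edgeR 4.0.16 (R 4.3.3) was fitted to all 17 time course libraries with a mean per surgery and day. TMM scaling, filterByExpr (minimum count 10, minimum total 15; 16084 of 24411 genes kept), robust quasi-likelihood tests and Benjamini-Hochberg adjustment were used. CPM was computed here. Deviations and principal components used log2 CPM with a prior count of 2. Transcript length was the longest protein-coding transcript of GENCODE M21 by symbol, or of any kind where none was coding (99.19% of tested genes), and the offset was a spline of length with 5 degrees of freedom per library.

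Named genes were the 15 higher and 10 lower genes of smallest p among those with mean CPM 1 or more, groups that did not overlap and a symbol other than a predicted model, up to 4 of smallest p of each list, all macrophage, osteoclast and cytokine genes where values are given, the 10 of widest SNI spread and the 5 each way of smallest p in each interaction. Col1a1, Bglap, Mbp, Krt5, Krt14, Tnfrsf11b, Il34, Igf1r, Igf2, Ccl2, Mki67, Mpo, Sox10 and Krt16, where outside that rule, genes beyond sham in all 3 SNI libraries and the lower calls of DESeq2 were chosen after their values were seen. The comparison, the 40 lists and the rule were chosen with earlier results of these data known. Same-numbered sham and SNI libraries deviated together (r of 0.243, 0.147 and 0.105 over genes; 0.15 for sham 2 with SNI 3 and below 0 for the other unlike pairs). The labels do not say that equal numbers mark pairs, and an unlike pair reached 0.15, so these values cannot decide it. The main fit had no block. Values with the replicate block, an alternative, are given where they change a count. Alternatives were RLE size factors, no filter, DESeq2 1.42.0, limma 3.58.1 voom with sample weights, the compared groups alone, the block and each library left out. Added after seeing the data were the length offset, length with GC content, the block with length, and both SNI 2 and SNI 3 left out. The fit was tested on simulated data. The second set had 55487 Ensembl identifiers, 55141 with a symbol. Some genes that met the rule are not reported here.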

Additional observations from a re-analysis of the deposited data

How the results depend on the processing

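No gene was called by edgeR under RLE size factors, no filter, the compared groups alone, the replicate block, the length offsets or with any single library of day 14 left out. DESeq2 called 67 and voom 8737. At an unadjusted p under 0.05, voom gave 4915 higher and 4783 lower genes, DESeq2 481 lower, the compared groups alone 1618 and 654, the length offset 1183 and 435, length with GC content 1141 and 591, and the fit without SNI 2 and SNI 3 together 261 and 46. The replicate block gave 614 lower, and the block with the length offset 1088 higher and 676 lower; the block changed no other call. Leaving out single libraries gave 275 to 1015 higher and 45 to 1825 lower. The interaction with day 7 gave 1 call by DESeq2 and 53 by voom. The interaction with day 21 gave 10 by DESeq2 and, with single libraries left out, 0 to 4563. The macrophage median was 0.55 without SNI 2 and SNI 3, and by voom the osteoclast median was 0.20 and the chemokine median 1.39.

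Signs of some uncalled log2 fold changes turned. With the length offset Ntrk3 was 0.31, Mbp 0.066 and Krt14 -0.049; with length and GC content Ntrk3 was 0.19, Mbp 0.10, Tnfrsf11b -0.20, Il1rn -0.11 and Igf2 0.16; with the block and length offset Ntrk3 was 0.24, Mbp 0.050 and Krt14 -0.043. By voom Oscar was -0.77, Tnf -0.58, Tnfrsf11a -0.30 and Il1a 0.10. Without SNI 2 and SNI 3 Itga11 was 1.23, Col11a1 1.18, Col1a1 1.06, Col11a2 0.70, Nfatc1 0.39, Bglap 0.012, Il34 -0.020, Il1rn -0.22, Tnfrsf11b -0.24 and Mpo -1.15. With single libraries left out Itga11 ran from -2.57 to 0.36, Col11a1 from -2.61 to 0.32, Col1a1 from -2.48 to 0.20, Bglap from -0.84 to 0.16, Il1a from -0.37 to 0.028, Tnfrsf11a from -0.10 to 0.39 and Tnfrsf11b from -0.052 to 0.23. For alternatives that leave out libraries or correct for length the change follows from those steps, and otherwise the cause was not tested.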

Other observations

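Mesenchymal genes of the blastema were mixed. Of 11 tested, 7 had a log2 fold change above 0 and 3 an unadjusted p under 0.05, all higher, with a median of 0.15 (0.41 with the length offset, -0.18 without SNI 1). Pdgfra, a receptor of mesenchymal progenitors, had 80.6, 66.7 and 84.7 CPM in sham and 124, 57.4 and 76.7 CPM in SNI (0.15, SE 0.43, and 0.76, SE 0.17 with the offset). Prrx2, a transcription factor of limb mesenchyme, had 16.9, 15.4 and 17.0 CPM in sham and 26.2, 20.4 and 26.8 CPM in SNI (0.58, SE 0.21, and 0.29, SE 0.41 with the offset), and Bmp4, a signal for digit bone, had 25.2, 22.8 and 24.1 CPM in sham and 18.0, 19.8 and 15.0 CPM in SNI (-0.45, SE 0.22). The last 2 genes did not overlap between the groups and went opposite ways.

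Interferon response genes had a median of 0.58 (0.18 without SNI 3), with 11 of 13 above 0 and none at an unadjusted p under 0.05, and deviations of 0.09, 0.10 and 0.94 in SNI 1, 2 and 3. Of 17 genes of the TNF superfamily, 16 were above 0 and 5 at an unadjusted p under 0.05, with a median of 0.50 (0.30 with the length offset, 0.31 without SNI 3). Blood endothelial genes (3 of 10 above 0) had a median of -0.26 (-0.03 with the length offset, -0.55 without SNI 1, -0.08 without SNI 3). Tendon genes (6 of 8 above 0) had 0.71, -0.28 and -0.68 in SNI 1, 2 and 3. Of 10 sweat gland genes, 9 were below 0 and 2 at an unadjusted p under 0.05, with a median of -0.31. Monocyte genes had a median of 1.90 (0.81 without SNI 3) and deviations of 0.34, 1.20 and 2.64 in SNI 1, 2 and 3, with 8 of 10 above 0 and 3 at an unadjusted p under 0.05. Their summed CPM of 1986, 454 and 539 in SNI 1, 2 and 3 was set by Fn1, a long transcript with 1839, 284 and 301 CPM.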
